A study of Mus musculus with 12 samples.

Results

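The 40 genes described here encode the enzymes, membrane proteins and proton pump of the lysosome, together with the pair of transcription factors that govern its genes. They were taken as a fixed list of gene symbols, chosen with earlier results of these data known, and matched to the Ensembl IDs of the count table. All 40 were found, and all 40 passed the count filter (at least 10 counts in at least 2 libraries), among 16281 tested genes of the 54232 in the table. They comprised 13 cathepsins and related proteases with legumain among them, 8 hydrolases of sugars and lipids, 3 lumen proteins that are not hydrolases themselves, 6 membrane proteins, 2 transcription factors and 8 subunits of the vacuolar ATPase (V-ATPase). The cells were bone marrow derived macrophages (BMDMs) of wild-type C57BL/6 mice aged 6 to 8 weeks, grown in serum and M-CSF, cultured for 5 days and then incubated for 24 h. Their mRNA was sequenced in 12 libraries. The 6 groups of 2 libraries were NS (no conditioned medium, no drug; SJ1 and SJ2), NB9464 TCM (medium conditioned by NB9464 neuroblastoma cells, which carry amplified MYCN; SJ3 and SJ4), NBT3L TCM (medium of NBT3L cells, without the amplification; SJ5 and SJ6), R788 alone at 500 nM (SJ7 and SJ8), NB9464 TCM + R788 (SJ9 and SJ10) and NBT3L TCM + R788 (SJ11 and SJ12). The same 500 nM was used in the groups with both. R788, or fostamatinib, is a prodrug of an inhibitor of the tyrosine kinase Syk. The study asked whether tumor-conditioned medium (TCM) drives macrophages toward an immunosuppressive state and whether Syk inhibition counters this.

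NB9464 TCM was collected in medium without serum, according to the methods of the study. How NBT3L TCM was prepared, which base medium NS and R788 cells received and which vehicle carried the drug were not given in the sources used here, so an effect of conditioned medium and one of base medium or serum cannot be told apart. Nothing in the labels ties the libraries to separate animals or cultures, so p-values measure the spread between these libraries, which may be technical.

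The lysosome digests material that a macrophage takes up or recycles. The V-ATPase pumps protons across its membrane, and the cathepsins, most of them cysteine proteases, together with glycosidases, lipases and other hydrolases work in the resulting acid lumen. Many of these genes carry a palindromic element, TCACGTGA, called the CLEAR element, which the transcription factors TFEB and TFE3 bind. In macrophages the same organelle cleaves antigens for presentation and handles lipid and debris from engulfed cells.

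RefSeq promoter sequences on GRCm38.p6, covering 250 bases before to 50 bases after a start site, were held for 32 of the 40 genes, the others being Ctsb, Ctse, Ctsh, Npc1, Atp6v0d2, Atp6v1b2, Atp6v1c1 and Atp6v1h. TCACGTGA, which reads the same on both strands, occurred in 6 of these 32 genes (18.8%) and in 1.12% of the 27025 genes in the table of promoters. The shorter E-box CACGTG, which lies inside the CLEAR element and is also a palindrome, occurred in 13 of the 32 (40.6%) and in 8.09% of all genes. The windows below show the 6 genes with a CLEAR element and Lamp1, whose promoter held 4 E-boxes and no CLEAR element. They are shown because TFEB and TFE3 recognize these letters, although a match describes a sequence and not a bound site. Capitals mark the CLEAR elements or, in Lamp1, the E-boxes. Each window is given 5′ to 3′ on the strand of the gene, with up to 30 bases on either side. The windows were chr2:164833730-164833814 (plus strand, Ctsa), chr7:142387889-142387956 (minus strand, Ctsd), chrX:134601163-134601255 (minus strand, Gla), chr8:3500443-3500510 (plus strand, Mcoln1), chr8:13159070-13159181 (plus strand, Lamp1), chr8:105566031-105566098 (minus strand, Atp6v0d1) and chr16:44139354-44139421 (minus strand, Atp6v1a). The first marked base lay 4 bases before the start site in Atp6v0d1, 228 bases before it in Gla and between these in the others. Ctsa also had a promoter of another start site, chr2:164832622-164832921, with no CLEAR element and no E-box.
Ctsa: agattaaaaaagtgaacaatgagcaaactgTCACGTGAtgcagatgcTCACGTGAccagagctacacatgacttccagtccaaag
Ctsd: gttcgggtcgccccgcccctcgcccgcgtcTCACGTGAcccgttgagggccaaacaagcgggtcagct
Gla: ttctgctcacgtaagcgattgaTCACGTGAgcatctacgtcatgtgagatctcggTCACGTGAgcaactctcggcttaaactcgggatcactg
Mcoln1: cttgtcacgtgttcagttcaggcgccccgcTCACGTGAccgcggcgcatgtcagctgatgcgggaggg
Lamp1: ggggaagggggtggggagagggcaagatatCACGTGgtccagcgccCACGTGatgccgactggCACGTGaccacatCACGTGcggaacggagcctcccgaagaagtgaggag
Atp6v0d1: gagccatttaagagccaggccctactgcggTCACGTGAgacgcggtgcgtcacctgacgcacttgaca
Atp6v1a: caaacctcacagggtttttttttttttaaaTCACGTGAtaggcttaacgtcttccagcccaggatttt

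The count tables were of similar depth, between 44977847 and 56449685 counts per library, with 16149 to 18343 genes detected. The lowest number of detected genes was in SJ8, 1 of the R788 pair, which also stood apart from its partner for some of the 40 genes, such as Atp6v1c1 with 12154 normalized counts in SJ7 and 15871 in SJ8. A normalized count is the deposited count divided by the DESeq2 size factor of the library. All 8 macrophage markers were detected in every group, with summed normalized counts of at least 1561111. T and B cell markers summed to at most 36.6, and 7 of 8 neuroblastoma markers (all but Gata3) were at 0 in NS. In bulk RNA, fewer cells of a type and less RNA per cell cannot be told apart.

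Scaled by gene length and library size as TPM, the 40 genes spanned a wide range of levels. The highest level in NS was that of Psap, the precursor of the saposins that help lipid hydrolases reach their substrates, at 7756 ± 229 TPM (SD, n = 2). The proteases Ctss and Ctsb followed at 6779 ± 125 and 5556 ± 132 TPM. At the other end, Atp6v0d2, Ctsf and Ctse lay at 11.1, 6.72 and 1.94 TPM in NS. Within the list, the order of neighbors changed with the medium: on the TPM scale Ctsz, an exopeptidase, ranked below Ctss, Ctsb and Ctsd in NS and above all of them in NB9464 TCM (3647 ± 176 TPM, against 3153 ± 107 for Ctsd) and in NBT3L TCM (4179.8 ± 85.3 TPM). Ctsd and Ctsb in NB9464 TCM, at 3153 ± 107 and 3076 ± 30.5 TPM, did not differ beyond their spread.

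**Figure D1:**
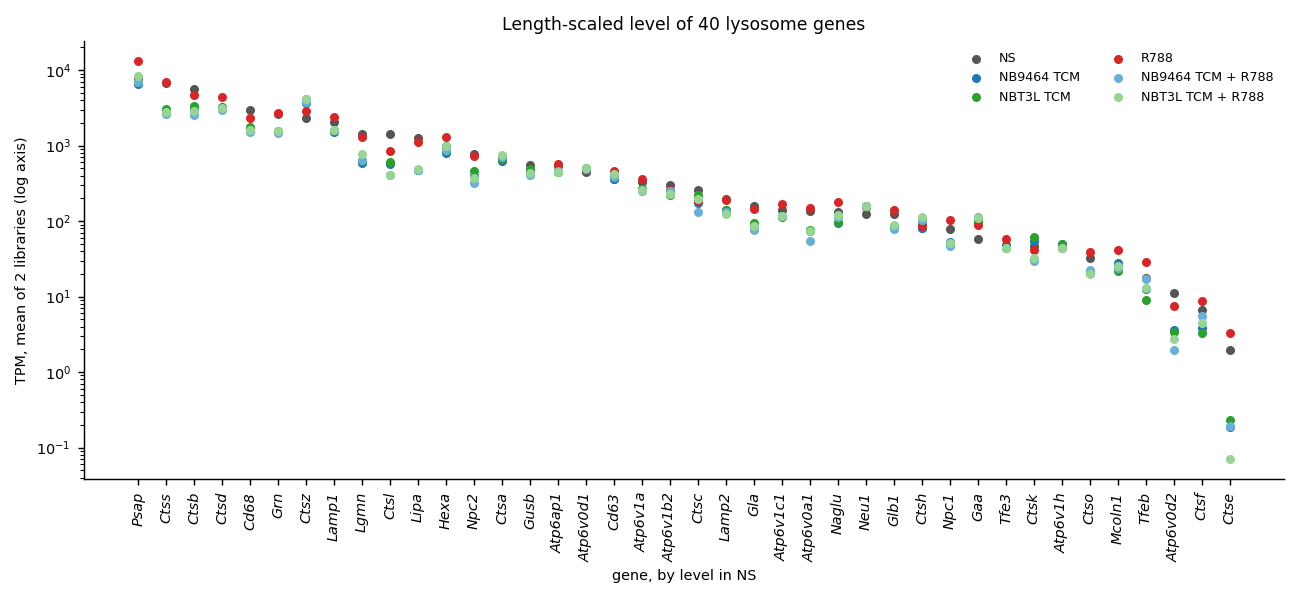
Level of each of the 40 genes in TPM (log axis, mean of 2 libraries) in the 6 groups, with genes ordered by their level in NS. In NS the levels run from 7756 TPM for Psap down to 1.94 TPM for Ctse, Psap reaches 13349 TPM with R788 alone, and the 4 groups with TCM (3647 to 4193 TPM) lie above NS (2342 TPM) for Ctsz.

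Together the 40 genes took 4.58% ± 0.027 of all counts in NS (SD, n = 2), against 3.39% ± 0.041 with NB9464 TCM and 3.68% ± 0.045 with NBT3L TCM. With R788 the share was 4.93% ± 0.066 without TCM, 3.37% ± 0.00097 with NB9464 TCM and 3.71% ± 0.019 with NBT3L TCM. The cathepsins and legumain made up the largest portion, 2.36% ± 0.026 of counts in NS against 1.62% ± 0.040 and 1.78% ± 0.018 in the TCM groups. All 4 libraries of the TCM groups without drug lay below both NS libraries in both shares.

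**Figure D2:**
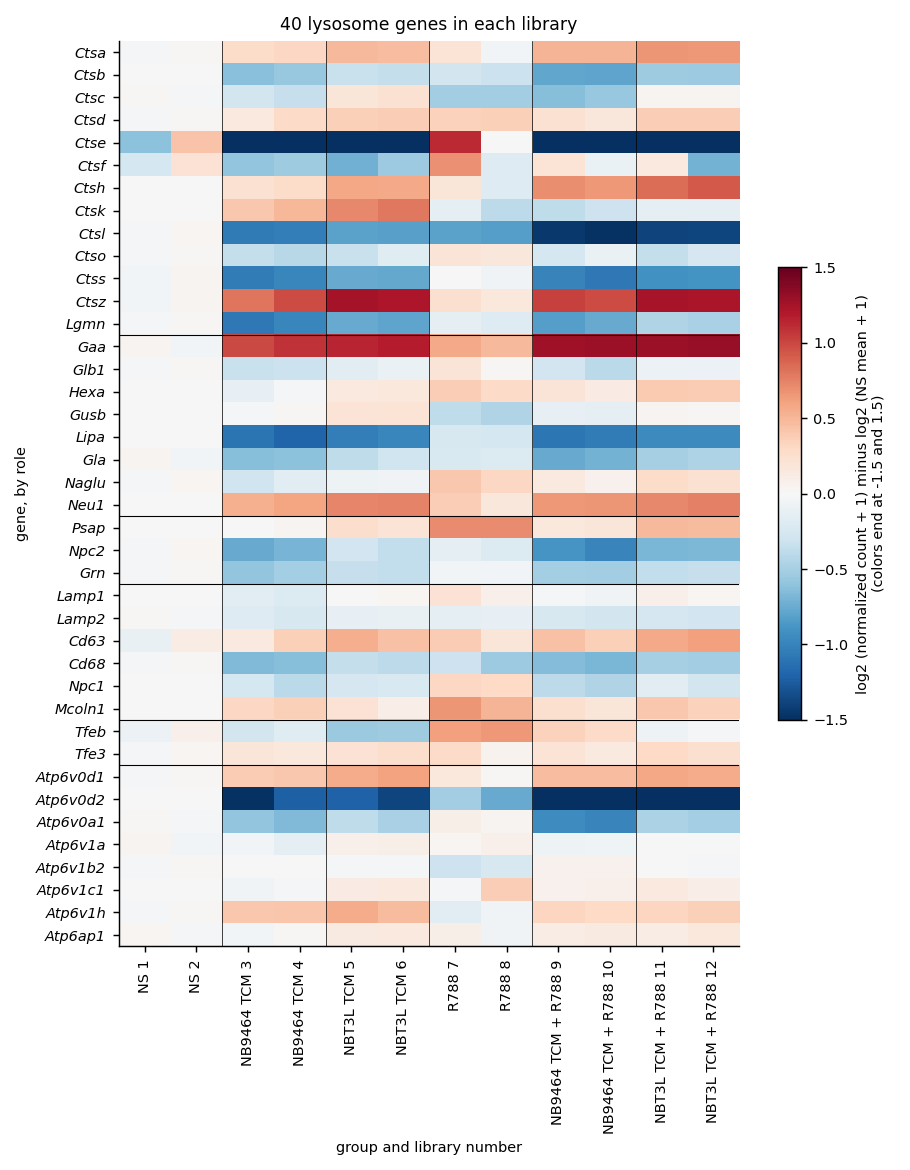
Each row is 1 of the 40 genes, grouped by role with black lines, and each column is 1 library, so that color gives log2 (normalized count + 1) minus log2 (NS mean + 1), ending at -1.5 and 1.5. In the libraries with TCM, Ctsz and Gaa are red and Ctsl, Ctss, Lgmn, Lipa and Atp6v0d2 are blue relative to NS.

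In NB9464 TCM against NS, 11 of the 40 genes (27.5%) were higher and 19 (47.5%) lower (DESeq2, adjusted p under 0.05), beside 17.2% and 16.9% of all tested genes. In NBT3L TCM, 16 (40%) were higher and 16 (40%) lower, beside 18.0% and 17.3%. The shares of the 40 genes exceeded those of all genes in both directions, most for the lower calls in NB9464 TCM. The 40 genes were chosen with earlier results of these data known, so this excess is not a test of the list. Most of them also had counts far above the filter, and the shares of all genes were not matched for level. Both comparisons use the same NS libraries. The median log2 fold change over the 40 genes was -0.20 in NB9464 TCM and 0.00 in NBT3L TCM, where the medians over all tested genes were 0.02 and 0.00. As each library was left out, those of the 40 genes lay between -0.21 and -0.16 and, on both sides of 0, between -0.015 and 0.012. Of the calls, 8 of the 11 higher and 17 of the 19 lower in NB9464 TCM, and 10 of 16 and 13 of 16 in NBT3L TCM, were kept in all 20 alternative fits. When libraries were scaled to their total counts, the median of all genes shifted to -0.10 in NB9464 TCM and -0.23 in NBT3L TCM, and the calls became 8 higher and 26 lower, and 10 higher and 22 lower.

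Sums of several marker lists differed between the same libraries, in part through few members. The 9 osteoclast markers summed to between 10615 and 11015 normalized counts in NS (Calcr at 0), 15908 to 16077 in NB9464 TCM and 19129 to 19433 in NBT3L TCM. This list split. Over the 4 libraries with TCM alone Acp5 was at 4276 to 4498 (748 to 814 in NS) and Mmp9 at 4842 to 9253 (1071 to 1157), and Oscar was also above NS, whereas Dcstamp was at 73.6 to 111 (189 to 201), Nfatc1 at 2266 to 2675 (3194 to 3244), Tnfrsf11a at 3238 to 4025 (5120 to 5556) and Ocstamp at 15.3 to 32.5 (35.7 to 51.2). The 7 neutrophil markers summed to between 5566 and 6016 in NS, 8926 to 9017 in NB9464 TCM (Ly6g and Mpo at 0) and 10638 to 10895 in NBT3L TCM (Elane at 0). Their sum was higher through S100a8, at 6013 to 8055 with TCM alone and 1161 to 1369 in NS, whereas Ngp was at 504 to 725 (1687 to 1691), S100a9 at 1922 to 2098 (2368 to 2596), Elane at 5.57 or less (44.6 to 69.5) and Mpo at 6.49 or less (53.5 to 87.2). The 8 macrophage markers summed to between 1561111 and 1609037 in NS and to between 1991245 and 2357274 over the libraries with TCM alone, none at 0. Adgre1, Itgam, Cd14 and Lyz2 were above NS in all 4 of these libraries, and Fcgr1 was below. Fibroblast markers, with none of the 6 at 0, summed to 1568 to 1757 in NB9464 TCM, overlapping NS (1296 to 1660), and to 1993 to 2230 in NBT3L TCM, above it. The sum of the 8 neuroblastoma markers was at most 10.3 in NS and between 86.4 and 127 in the libraries with TCM alone. Much of it was Gata3, at 44.6 to 67.0 in these libraries and the only marker above 0 in NS. Mycn was at 6.70 to 23.2. Th and Chga were at 0 in both media and others, Phox2a and Dbh among them, also in NB9464 TCM. The 6 dendritic cell markers summed to between 46.5 and 56.4 in NS and 56.7 to 170 in those libraries, with Siglech at 0 in all of them. The part of these cells or RNAs in the results was not tested.

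The 13 cathepsins and related proteases split into a falling and a rising group. In both media Ctsl, Ctss, Ctsb, Ctso and Lgmn were lower than in NS, and Ctsz, Ctsa, Ctsd, Ctsh and Ctsk were higher. Of the 13, 5 rose and 7 fell in NB9464 TCM, beside 17.2% and 16.9% of all tested genes. In NBT3L TCM 6 rose and 6 fell, beside 18.0% and 17.3%. Scaled to total counts, 3 were higher and 7 lower, and 5 higher and 7 lower. Ctsf, a low-level member, passed the test in neither medium, with log2 fold changes of -0.57 ± 0.38 and -0.63 ± 0.38.

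Ctsl (ENSMUSG00000021477, chr13:64359337-64370890) encodes cathepsin L, an endopeptidase that also processes other lysosomal proteases. Ctsl had normalized counts of 139701 and 146459.7 in NS, 68729 and 69603 in NB9464 TCM, 81897 and 81461 in NBT3L TCM, 82195 and 80728 in R788, 52303 and 51109 in NB9464 TCM + R788 and 54847 and 55132 in NBT3L TCM + R788. The NS libraries were the highest of the 12, and those with both TCM and R788 the lowest, with no overlap between NS and any other group. The log2 fold change against NS was -1.05 ± 0.041 in NB9464 TCM (SE, adjusted p = 3.04e-140 by DESeq2) and -0.81 ± 0.041 in NBT3L TCM (adjusted p = 1.12e-83).

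Ctsz (ENSMUSG00000016256, chr2:174427493-174439039) encodes cathepsin Z, also called cathepsin X, a carboxypeptidase. Its normalized counts were 51632 and 54369 in NS, 92645 and 104403 in NB9464 TCM, 125865 and 122419 in NBT3L TCM, 62619 and 58917 in R788, 108198 and 104168 in NB9464 TCM + R788 and 125311 and 123410.3 in NBT3L TCM + R788. Every library with TCM was above every library without it. The log2 fold change was 0.89 ± 0.059 in NB9464 TCM (SE, adjusted p = 3.98e-51 by DESeq2) and 1.23 ± 0.059 in NBT3L TCM (adjusted p = 7.64e-96), the largest rise of the 40 genes in that medium.

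Ctse (ENSMUSG00000004552, chr1:131638306-131675505), an aspartic protease of endosomes, was near the bottom of the range. In normalized counts it was at 62.9 and 131 in NS, 3.83 and 18.6 in NB9464 TCM, 17.3 and 13 in NBT3L TCM, 212 and 96.6 in R788, 19.9 and 4.44 in NB9464 TCM + R788 and 1.06 and 8.04 in NBT3L TCM + R788. The 8 libraries with TCM were below the 4 without, but the NS and R788 pairs were wide. Its log2 fold changes of -3.11 ± 0.85 and -2.68 ± 0.85 against NS were past the threshold (DESeq2 adjusted p = 0.00117 and 0.00570). The first call was lost without SJ2 (adjusted p = 0.0705), and the second without SJ2 or SJ6 (adjusted p of up to 0.143).

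The remaining cathepsins are given by their changes. Legumain (Lgmn), an asparaginyl endopeptidase that activates cathepsins, fell with log2 fold changes of -1.03 in NB9464 TCM and -0.77 in NBT3L TCM. Ctss, the cathepsin that trims the invariant chain of MHC class II, had log2 fold changes of -1.01 and -0.76, and Ctsb had -0.60 and -0.35. Ctso, a less studied member, had -0.38 and -0.26, the latter call lost without SJ1, SJ2 or SJ5 (adjusted p of up to 0.298). Of the rising genes, Ctsk, the collagenase of osteoclasts, rose on the log2 scale by 0.45 and 0.76. Ctsa, which protects neuraminidase and beta-galactosidase in a complex, rose by 0.29 and 0.47. The aspartic protease Ctsd rose by 0.22 and 0.36, the former not called with total-count scaling (0.09). Ctsh, an aminopeptidase, rose by 0.25 and 0.57, and the first of these was lost without SJ1, SJ2 or SJ4 (adjusted p of up to 0.129). Ctsc, the dipeptidyl peptidase that activates granule serine proteases, went in opposite directions in the 2 media, with a log2 fold change of -0.31 in NB9464 TCM and 0.20 in NBT3L TCM. Scaled to total counts, the value in NBT3L TCM became -0.03 and was not called.

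Among the 8 hydrolases, acid alpha-glucosidase and acid lipase moved in opposite directions. In NB9464 TCM 2 hydrolases rose and 4 fell, beside 17.2% and 16.9% of all tested genes. In NBT3L TCM 4 rose and 2 fell, beside 18.0% and 17.3%, and 2 of 8 is close to these shares. With total-count scaling, 2 were higher and 6 lower, and 2 higher and 4 lower. Gaa (ENSMUSG00000025579, chr11:119267887-119285454), which breaks down lysosomal glycogen, had normalized counts of 4513 and 4278 in NS, 8760.1 and 9338 in NB9464 TCM, 9723 and 9934 in NBT3L TCM, 6492 and 6141 in R788, 10646 and 10684 in NB9464 TCM + R788 and 10742 and 10845 in NBT3L TCM + R788. All libraries with TCM or R788 were above both NS libraries. The log2 fold change was 1.04 ± 0.062 in NB9464 TCM (SE, adjusted p = 3.34e-62 by DESeq2) and 1.16 ± 0.062 in NBT3L TCM (adjusted p = 6.55e-77).

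Lipa (ENSMUSG00000024781, chr19:34492318-34527474) encodes lysosomal acid lipase, which frees cholesterol and fatty acids from lipoprotein esters. Its normalized counts were 58867 and 58080.0 in NS, 27470.1 and 25437 in NB9464 TCM, 28554 and 29716 in NBT3L TCM, 49357 and 48898 in R788, 27496 and 28174 in NB9464 TCM + R788 and 30154 and 30196 in NBT3L TCM + R788. The libraries with TCM lay in a band below all without it, whether or not R788 was present. Its log2 fold changes were -1.14 ± 0.049 (SE, adjusted p = 6.52e-119 by DESeq2) and -1.005 ± 0.049 (adjusted p = 9.82e-92).

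Neu1 (ENSMUSG00000007038, chr17:34931253-34935953), the lysosomal sialidase, rose in both media, as Gaa did. Over the 6 groups its normalized counts were 7413 and 7314 in NS, 10646 and 11123 in NB9464 TCM, 12199.7 and 12287 in NBT3L TCM, 9530.4 and 8285 in R788, 11556 and 11635 in NB9464 TCM + R788 and 12170.3 and 12476 in NBT3L TCM + R788. Libraries with TCM were above those without, and R788 alone was between. The log2 fold changes were 0.56 ± 0.067 in NB9464 TCM and 0.73 ± 0.067 in NBT3L TCM (SE, adjusted p = 6.34e-16 and 2e-26 by DESeq2).

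Among the other hydrolases, Gla, the alpha-galactosidase, fell in both media (-0.63 and -0.34 on the log2 scale). Glb1, the beta-galactosidase, fell in NB9464 TCM (-0.32) and had a log2 fold change of -0.14 ± 0.076 in NBT3L TCM, which was not called. Naglu, which acts on heparan sulfate, was called lower in NB9464 TCM (-0.23), a call lost without SJ2 or SJ3 (adjusted p of up to 0.158). Gusb and Hexa, a beta-glucuronidase and the alpha chain of hexosaminidase A, were called in NBT3L TCM alone, with log2 fold changes of 0.20 and 0.15. Neither was called with total-count scaling, where the values were -0.03 and -0.08. The call of Hexa was also lost without SJ1, SJ2, SJ5 or SJ6 (adjusted p of up to 0.104).

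Of the 3 lumen proteins, Npc2 and Grn fell in both media and Psap rose in NBT3L TCM. Npc2 (ENSMUSG00000021242, chr12:84754562-84773152) hands cholesterol to the membrane protein NPC1. Counts of Npc2 after normalization were 64253 and 67303 in NS, 38817 and 40580.2 in NB9464 TCM, 53874 and 50900.2 in NBT3L TCM, 59986 and 56862 in R788, 35491 and 33113 in NB9464 TCM + R788 and 41056 and 41148 in NBT3L TCM + R788. The NS pair was the highest and the NB9464 TCM + R788 pair the lowest. On the log2 scale Npc2 changed by -0.73 ± 0.054 in NB9464 TCM and -0.33 ± 0.054 in NBT3L TCM (SE, adjusted p = 4.73e-40 and 9.12e-09 by DESeq2).

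Grn (ENSMUSG00000034708, chr11:102430315-102437048), the progranulin precursor whose products support lysosomal enzymes, had normalized counts of 143386 and 146170.5 in NS, 96089 and 101905 in NB9464 TCM, 113927 and 112316 in NBT3L TCM, 140432 and 141229.6 in R788, 101518 and 100572 in NB9464 TCM + R788 and 112233 and 113494 in NBT3L TCM + R788. The libraries formed a lower band with TCM and an upper one without. Its log2 fold changes were -0.55 ± 0.042 and -0.36 ± 0.042 (SE, adjusted p = 1.43e-37 and 2.92e-16 by DESeq2).

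Psap (ENSMUSG00000004207, chr10:60277627-60302597) had normalized counts of 335789 and 332267 in NS, 333633 and 342402 in NB9464 TCM, 401235 and 384761 in NBT3L TCM, 544461 and 545442 in R788, 372154 and 378810.4 in NB9464 TCM + R788 and 467750.1 and 465125 in NBT3L TCM + R788. The R788 pair was the highest of all groups, and NS and NB9464 TCM overlapped. Its log2 fold change was 0.02 ± 0.039 in NB9464 TCM, not called, and 0.23 ± 0.039 in NBT3L TCM (SE, adjusted p = 1.67e-08 by DESeq2). With total-count scaling these became -0.11, called lower, and 0.00, not called, so the direction of Psap in TCM depended on the scaling.

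All 6 membrane proteins were called in NB9464 TCM, 2 higher and 4 lower, beside 17.2% and 16.9% of all tested genes. In NBT3L TCM 4 were called, 1 higher and 3 lower, beside 18.0% and 17.3%. The 1 higher of 6 is close to the share of all genes. Total-count scaling gave 1 higher and 4 lower, and 1 higher and 4 lower. Cd68 (ENSMUSG00000018774, chr11:69664213-69666153), the heavily glycosylated macrosialin of macrophage lysosomes, had normalized counts of 58444 and 59535 in NS, 37365 and 37954 in NB9464 TCM, 45894 and 44860.0 in NBT3L TCM, 47671 and 40479 in R788, 37526 and 36613 in NB9464 TCM + R788 and 41632 and 40945 in NBT3L TCM + R788. Both NS libraries were above all others. The log2 fold changes were -0.65 ± 0.063 and -0.38 ± 0.063 (SE, adjusted p = 2.48e-23 and 1.69e-08 by DESeq2).

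Cd63 (ENSMUSG00000025351, chr10:128900989-128912822), a tetraspanin of late endosomes, had normalized counts of 19438 and 22726 in NS, 23396 and 27071 in NB9464 TCM, 30813 and 28571 in NBT3L TCM, 27369 and 23836 in R788, 28552 and 26903 in NB9464 TCM + R788 and 31208 and 32413 in NBT3L TCM + R788. NS library SJ2 came close to the lower NB9464 TCM library, SJ3. For Cd63 the log2 fold change was 0.26 ± 0.085 in NB9464 TCM (SE, adjusted p = 0.00839 by DESeq2), lost without SJ1 or SJ4 (adjusted p of up to 0.256), and 0.49 ± 0.085 in NBT3L TCM (adjusted p = 4.41e-08).

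Mcoln1 (ENSMUSG00000004567, chr8:3500457-3515232) encodes the calcium channel TRPML1 and carries a CLEAR element among the windows above. For this gene the normalized counts were 3096 and 3058 in NS, 3832 and 3954 in NB9464 TCM, 3564 and 3300.4 in NBT3L TCM, 4872 and 4369 in R788, 3636 and 3501 in NB9464 TCM + R788 and 4088 and 3921 in NBT3L TCM + R788. R788 alone gave the highest pair and NS the lowest. Mcoln1 had a log2 fold change of 0.34 ± 0.082 in NB9464 TCM (SE, adjusted p = 0.000177 by DESeq2) and 0.16 ± 0.083 in NBT3L TCM, which was not called.

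Of the other membrane proteins, the cholesterol transporter Npc1 fell in both media, with log2 fold changes of -0.33 and -0.24. Lamp1 and Lamp2, the main glycoproteins of the lysosomal membrane, fell in NB9464 TCM, with -0.19 and -0.22 on that scale. In NBT3L TCM Lamp1 stood at 0.02 ± 0.050, not called, and at -0.21, called lower, with total-count scaling. Lamp2 was called lower there at -0.12, a call lost in 8 of the 12 fits that left out 1 library, at an adjusted p of up to 0.229.

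Of the 8 V-ATPase subunits, 2 were higher and 2 lower in NB9464 TCM, and 3 were higher and 2 lower in NBT3L TCM. Over all tested genes the shares were 17.2% and 16.9%, and 18.0% and 17.3% in these directions, and 2 of 8 is close to them. Total-count scaling gave 2 higher and 5 lower, and 2 higher and 4 lower. The paralogs of subunit d went in opposite directions. Atp6v0d1 (ENSMUSG00000013160, chr8:105524465-105566047), the widely expressed form, had normalized counts of 12296 and 12513 in NS, 16113 and 16480.5 in NB9464 TCM, 18222 and 18873 in NBT3L TCM, 13860.3 and 12566 in R788, 17058 and 17136 in NB9464 TCM + R788 and 18547 and 18233 in NBT3L TCM + R788. All libraries with TCM were above those without. Its log2 fold changes were 0.39 ± 0.056 and 0.58 ± 0.056 (SE, adjusted p = 3.07e-11 and 1.61e-23 by DESeq2).

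Atp6v0d2 (ENSMUSG00000028238, chr4:19876841-19922605), the form known from osteoclasts and macrophages, had normalized counts of 471 and 473 in NS, 168 and 202 in NB9464 TCM, 203 and 181 in NBT3L TCM, 327 and 279 in R788, 91.5 and 119 in NB9464 TCM + R788 and 164 and 143 in NBT3L TCM + R788. The NS pair was the highest and libraries with TCM the lowest. The log2 fold changes were -1.35 ± 0.26 and -1.30 ± 0.26 (SE, adjusted p = 1.28e-06 and 3.92e-06 by DESeq2). Per length, Atp6v0d2 was at 11.1 TPM in NS and Atp6v0d1 at 441 TPM, so the falling paralog was the less abundant one.

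Atp6v0a1 (ENSMUSG00000019302, chr11:101009452-101063719), a form of the membrane-spanning a subunit, had normalized counts of 14132 and 13756 in NS, 9229 and 8807 in NB9464 TCM, 10732 and 9923 in NBT3L TCM, 14836 and 14356 in R788, 7257 and 7002 in NB9464 TCM + R788 and 10030.4 and 9782 in NBT3L TCM + R788. The libraries with TCM were below those without, the NB9464 TCM + R788 pair lowest. Atp6v0a1 had log2 fold changes of -0.63 ± 0.059 and -0.43 ± 0.060 (SE, adjusted p = 7.56e-25 and 3.42e-12 by DESeq2). Of the cytoplasmic V1 sector, Atp6v1h rose in both media (0.41 and 0.52), while the catalytic subunit Atp6v1a stood at -0.09 and 0.08, Atp6v1b2 at 0.00 and -0.02 and Atp6v1c1 at -0.04 and 0.13, none of them called. With total-count scaling, Atp6v1b2 in NB9464 TCM (-0.13) and Atp6v1a in NBT3L TCM (-0.15) were called lower. The accessory subunit Atp6ap1 was called in NBT3L TCM alone (0.14), a call lost in 8 of the 12 fits that left out 1 library, at an adjusted p of up to 0.281, and with total-count scaling, where the value was -0.09.

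Tfeb (ENSMUSG00000023990, chr17:47737030-47792419) and Tfe3 (ENSMUSG00000000134, chrX:7762560-7775202) encode the factors that bind the CLEAR element, although their activity is set largely by phosphorylation, which mRNA does not show. Tfeb had normalized counts of 1459 and 1638 in NS, 1279 and 1370.2 in NB9464 TCM, 1052 and 1071 in NBT3L TCM, 2368 and 2438 in R788, 1964 and 1894 in NB9464 TCM + R788 and 1469.7 and 1515 in NBT3L TCM + R788. The NBT3L TCM pair was the lowest of the 6 and the R788 pair the highest. Its log2 fold change was -0.23 ± 0.11 in NB9464 TCM, not called, and -0.54 ± 0.11 in NBT3L TCM (SE, adjusted p = 2.53e-06 by DESeq2).

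Tfe3 had normalized counts of 6882 and 7189 in NS, 7979.5 and 7829 in NB9464 TCM, 8205 and 8445 in NBT3L TCM, 8573 and 7313 in R788, 8115 and 7775 in NB9464 TCM + R788 and 8675 and 8287 in NBT3L TCM + R788. The NS pair was the lowest, and the R788 libraries lay apart. For Tfe3 the log2 fold change was 0.17 ± 0.076 in NB9464 TCM, not called, and 0.24 ± 0.076 in NBT3L TCM (SE, adjusted p = 0.00495 by DESeq2), a call lost without SJ1 or SJ6 (adjusted p of up to 0.0812) and with total-count scaling (0.01). Of the 6 genes with a CLEAR element in the windows above, Ctsa, Ctsd and Atp6v0d1 rose in both media, Mcoln1 rose in NB9464 TCM, Gla fell in both and Atp6v1a was called in neither.

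**Figure D3:**
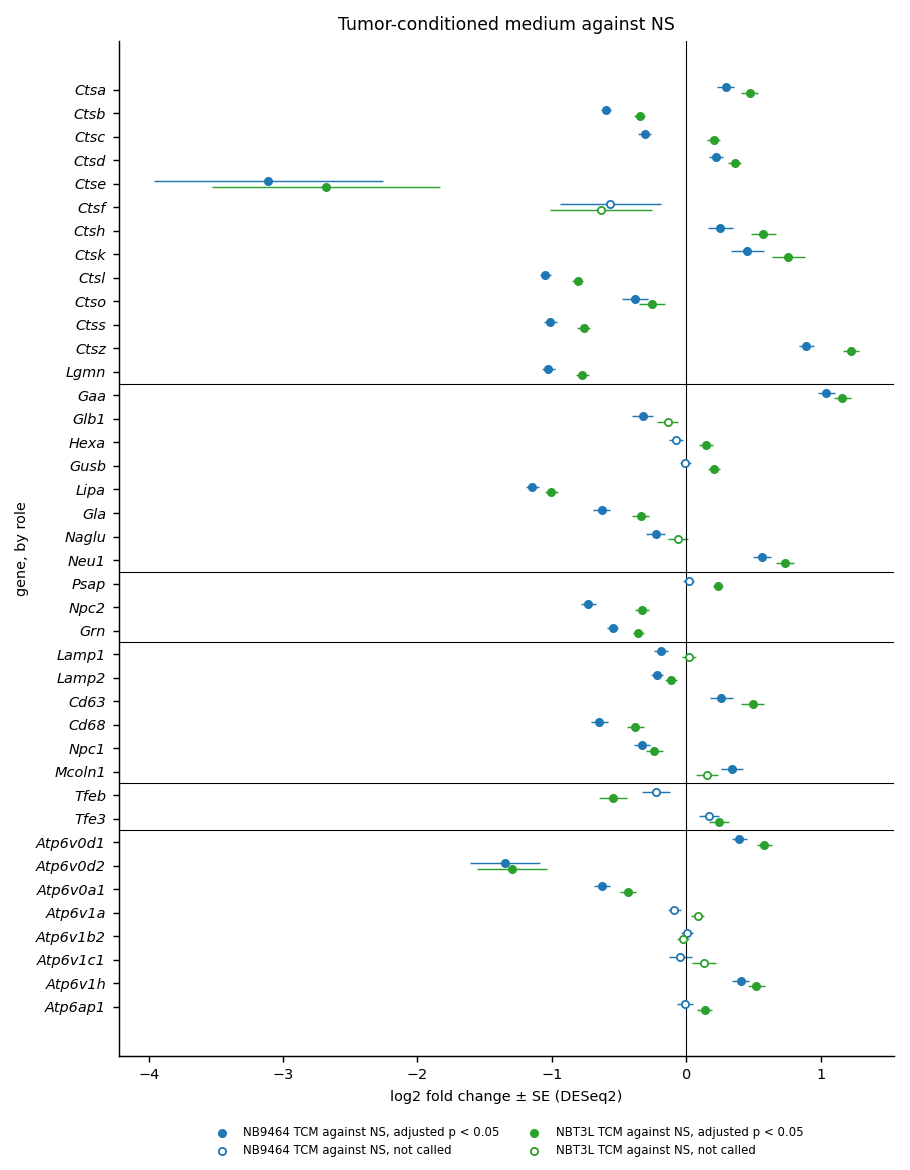
Log2 fold change ± SE (DESeq2) of each of the 40 genes in NB9464 TCM and NBT3L TCM against the same NS libraries, with filled points for adjusted p under 0.05. The changes run from -3.11 (Ctse, NB9464 TCM) to 1.23 (Ctsz, NBT3L TCM), and called genes with a fall and called genes with a rise occur in all 6 roles.

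Most of the 40 genes that differed between the 2 media were lower in NB9464 TCM. Against NBT3L TCM, 22 of the 40 genes (55.0%) were lower and 1 (2.50%) was higher in NB9464 TCM, beside 5.72% and 3.69% of all tested genes. The median log2 difference was -0.19, with a median of -0.00 over all tested genes. With total-count scaling, 10 were lower and 3 higher, and the median of all genes shifted to 0.10. The largest called difference was that of Ctsc at -0.51 ± 0.050 (SE, adjusted p = 3.28e-22 by DESeq2), followed by Npc2 at -0.40 ± 0.054 and Ctsz at -0.33 ± 0.058. Ctsc, given in full after its values were seen, had normalized counts of 23492 and 22869 in NS, 19167 and 18254 in NB9464 TCM, 26229.9 and 27185 in NBT3L TCM, 16199 and 16121 in R788, 14911 and 15694 in NB9464 TCM + R788 and 23802 and 23793 in NBT3L TCM + R788. NB9464 TCM was below NS in both libraries and NBT3L TCM above it. The other differences were smaller, from -0.32 to -0.14, and 10 of the 22 kept their call in all 20 alternative fits (Ctsb, Ctsc, Ctsl, Ctss, Ctsz, Lgmn, Gla, Psap, Npc2 and Cd68). Calls of Ctsa, Ctsd, Ctsh, Lipa, Cd63, Atp6v0d1, Atp6v0a1 and Atp6v1a were each lost when 1 library was left out, at an adjusted p of up to 0.585 (Ctsd without SJ3). Tfeb was the gene called higher (0.32 ± 0.11, DESeq2 adjusted p = 0.0293), a call lost in 8 of the 12 fits that left out 1 library, at an adjusted p of up to 0.272.

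The effect of R788 was measured within each of the 3 media, and these comparisons share no library. Without TCM, 12 of the 40 genes (30%) were higher and 12 (30%) lower, beside 11.6% and 15.0% of all tested genes. In NB9464 TCM 9 (22.5%) were higher and 8 (20%) lower, beside 5.79% and 8.70%. In NBT3L TCM 8 (20%) were higher and 9 (22.5%) lower, beside 5.33% and 7.24%. The median log2 fold change over the 40 was 0.08, 0.04 and 0.00 in the 3 media, where those over all tested genes were 0.00, -0.00 and 0.00. These medians rested on single libraries. The first was -0.02 without SJ7 and 0.13 without SJ8, the second 0.02 without SJ3 or SJ9, and the third lay between -0.009 and 0.015 as each library was left out. With total-count scaling the calls without TCM became 17 higher and 7 lower.

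In the same libraries the 6 fibroblast markers summed to between 2638 and 3021 normalized counts with R788 alone and 2252 to 2459 in NB9464 TCM + R788. In NBT3L TCM + R788 they summed to 3434 to 3544. Each sum was above the same medium without R788, with none of the 6 at 0, but the list split. The collagens Col1a1, Col1a2 and Col3a1 were higher with R788 in each medium. Dcn was lower in both TCM and Lum in NBT3L TCM. Pdgfrb was lower with R788 alone and higher with it in NB9464 TCM. Macrophage markers summed to 1620529 to 1798209 with R788 alone, above NS (1561111 to 1609037). They summed to 2412480 to 2514001 in NB9464 TCM + R788 and to 2612503 to 2654957 in NBT3L TCM + R788, above the same media without R788. Fcgr1, Itgam and Cd14 of that list were nevertheless lower with R788 in each medium. Neutrophil markers summed to 7550 to 8355 in NB9464 TCM + R788 (Mpo at 0) and to 8246 to 8440 in NBT3L TCM + R788 (Ly6g at 0), below the same media without R788, and to 4355 to 5609 with R788 alone (Ly6g at 0), overlapping NS. S100a8 and S100a9 were lower with R788 in both TCM and Ngp was higher. Dendritic cell markers summed to 36.4 to 38.3 with R788 alone (Flt3, Clec9a and Siglech at 0), below NS, and overlapped between the libraries with and without R788 in each TCM. Osteoclast markers summed to 8516 to 8751 with R788 alone (Calcr and Oscar at 0), below NS, to 18335 to 18666 in NB9464 TCM + R788 and to 18246 to 18302 in NBT3L TCM + R788. Within that list Acp5 was higher and Mmp9 and Dcstamp were lower with R788 in both TCM. Neuroblastoma markers summed to 104 to 144 in NB9464 TCM + R788, above NB9464 TCM (86.4 to 90.9). In NBT3L TCM + R788 they summed to 74.2 to 74.4, below NBT3L TCM (96.5 to 127). With R788 alone they overlapped NS. Hand2 of that list was higher with R788 in both TCM, whereas Gata3 was lower in NBT3L TCM and overlapped in NB9464 TCM. The part of these cells or RNAs in the results was not tested.

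In all 3 media 4 genes were higher with R788 (Hexa, Naglu, Psap and Tfeb) and 5 were lower (Ctsb, Ctsc, Ctsl, Gusb and Npc2), beside 1.87% and 3.59% of all tested genes. Of these 9, Hexa, Naglu and Tfeb on the higher side and Ctsb and Ctsl on the lower side kept the call in each medium in all 20 alternative fits. The log2 fold change of Tfeb was 0.63 ± 0.10 without TCM, 0.54 ± 0.11 with NB9464 TCM and 0.49 ± 0.11 with NBT3L TCM (SE, adjusted p = 1.74e-08, 6.07e-06 and 0.000102 by DESeq2). In each medium both libraries with R788 were above both without.

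Ctsl fell with R788, with a log2 fold change of -0.81 ± 0.041 without TCM, -0.42 ± 0.041 with NB9464 TCM and -0.57 ± 0.041 with NBT3L TCM (SE, adjusted p = 7.14e-84, 4.44e-22 and 7.12e-41 by DESeq2). Ctsl was thus lower in each comparison in which TCM or R788 was added. Ctsb had -0.30, -0.19 and -0.19 on the same scale. Hexa rose by 0.32, 0.23 and 0.24, and Naglu by 0.35, 0.33 and 0.32.

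The other 4 genes called in all 3 media had weaker calls in some of them. Psap rose by 0.71 ± 0.039 without TCM (SE, adjusted p = 3.29e-70 by DESeq2), by 0.15 ± 0.039 in NB9464 TCM, lost without SJ3 or SJ10 (adjusted p of up to 0.0799), and by 0.25 ± 0.039 in NBT3L TCM. Npc2 had log2 fold changes of -0.17, -0.21 and -0.35. The first call was lost without SJ2 (adjusted p = 0.128) and the second without SJ10 (adjusted p = 0.0977). For Gusb the values were -0.42, -0.12 and -0.17, with the second call lost in 10 of the 12 fits that left out 1 library, at an adjusted p of up to 0.295, and the third lost without SJ6 or SJ12 (adjusted p of up to 0.0918). Ctsc stood at -0.52, -0.29 and -0.17, the last lost without SJ6, SJ11 or SJ12 (adjusted p of up to 0.234).

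**Figure D4:**
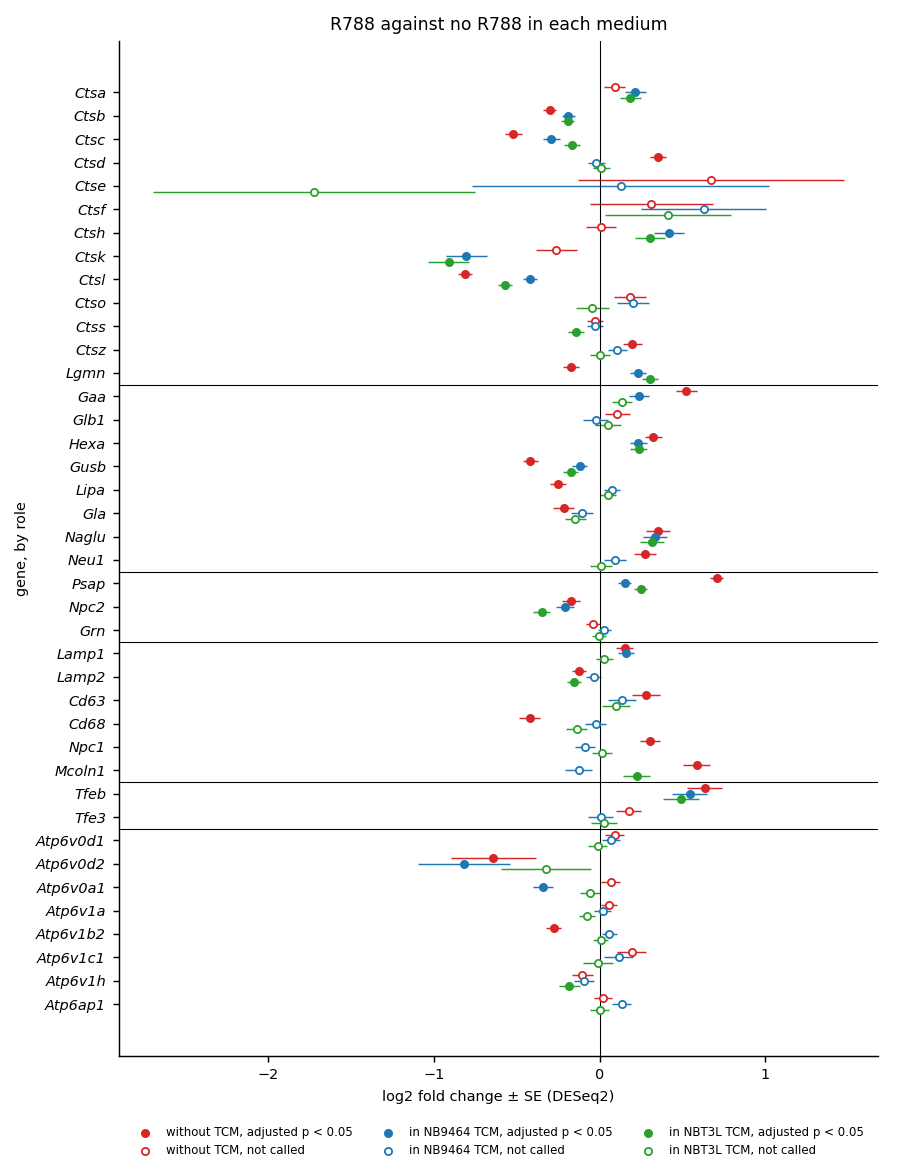
Log2 fold change ± SE (DESeq2) of each of the 40 genes with R788 against no R788, without TCM (red), in NB9464 TCM (blue) and in NBT3L TCM (green), with filled points for adjusted p under 0.05. Ctsb, Ctsl, Hexa, Naglu and Tfeb have 3 filled points on 1 side of 0, whereas Psap, Ctsd, Mcoln1 and Cd68 have a red point farther from 0 than the others.

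Other genes were called with R788 without TCM and in at most 1 of the TCM. Ctsd rose by 0.35 ± 0.050 without TCM and stood at -0.02 and 0.01 in the 2 TCM. Npc1 rose by 0.30 and stood at -0.09 and 0.01. On the lower side, Cd68 had a log2 fold change of -0.42 without TCM and of -0.02 and -0.14 in the TCM. Lipa had -0.25 against 0.07 and 0.05, and Atp6v1b2 had -0.28 against 0.06 and 0.01. Neu1 rose by 0.27 and stood at 0.09 and 0.01. Gaa rose by 0.52 without TCM and by 0.24 in NB9464 TCM, the latter lost without SJ3 (adjusted p = 0.0799), and stood at 0.14, not called, in NBT3L TCM. Mcoln1 rose by 0.59 ± 0.082 without TCM (SE, adjusted p = 1.43e-11 by DESeq2), stood at -0.13 in NB9464 TCM and was called at 0.22 in NBT3L TCM, lost in 10 of the 12 fits that left out 1 library, at an adjusted p of up to 0.432.

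Several calls without TCM rested on 1 library or scaling. On the higher side, that of Ctsz at 0.20 was lost without SJ1 (adjusted p = 0.0891), that of Lamp1 at 0.15 without SJ1, SJ2 or SJ7 (adjusted p of up to 0.103) and that of Cd63 at 0.28 without SJ1 or SJ7 (adjusted p of up to 0.322). On the lower side, that of Lgmn at -0.17 was lost without SJ2 (adjusted p = 0.0516), that of Gla at -0.22 without SJ1 (adjusted p = 0.104), that of Lamp2 at -0.12 without SJ1, SJ2, SJ11 or SJ12 (adjusted p of up to 0.184) and that of Atp6v0d2 at -0.64 without any 1 of the 12 libraries, at an adjusted p of up to 0.212. Lgmn, Gla, Npc2, Lamp2 and Atp6v0d2 also lost the call with total-count scaling. The libraries of the R788 pair differed for some members. Ctsh, at 6565 and 5082 with R788 on either side of NS, had a log2 fold change of 0.01 ± 0.092 with both libraries of -0.19, called lower, without SJ7 and of 0.18, called higher, without SJ8.

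The proteases Ctsk and Lgmn, given in full after their values were seen, passed the test with R788 in both TCM. Ctsk had normalized counts of 1125 and 1111 in NS, 1484 and 1578 in NB9464 TCM, 1850.3 and 1935 in NBT3L TCM, 1016 and 853 in R788, 855 and 901 in NB9464 TCM + R788 and 1007 and 1009 in NBT3L TCM + R788. The 4 libraries with TCM alone were above all others, and those with TCM and R788 were below NS. The log2 fold change with R788 was -0.26 ± 0.12 without TCM, not called, -0.80 ± 0.12 in NB9464 TCM (SE, adjusted p = 3.85e-09 by DESeq2) and -0.91 ± 0.12 in NBT3L TCM (adjusted p = 9.35e-12).

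Lgmn had normalized counts of 50866 and 51853 in NS, 24407 and 26046 in NB9464 TCM, 30395 and 29738 in NBT3L TCM, 46269.7 and 44858 in R788, 28956 and 30356 in NB9464 TCM + R788 and 37419 and 36789 in NBT3L TCM + R788. In each TCM both libraries with the drug were above both without. The log2 fold change was 0.23 ± 0.049 in NB9464 TCM and 0.30 ± 0.049 in NBT3L TCM (SE, adjusted p = 4.33e-05 and 2.79e-08 by DESeq2). All 4 libraries with TCM and R788 stayed below NS. Ctsh also rose with R788 in both, by 0.42 and 0.30, the latter lost without SJ5, SJ6 or SJ12 (adjusted p of up to 0.165). Ctsa was called higher at 0.22 and 0.18, the former lost without SJ3, SJ9 or SJ10 (adjusted p of up to 0.0848) and the latter without SJ5, SJ6, SJ11 or SJ12 (adjusted p of up to 0.218). Atp6v0a1 fell further in NB9464 TCM, with a log2 fold change of -0.34 ± 0.060 (SE, adjusted p = 4.85e-07 by DESeq2), and stood at -0.06 in NBT3L TCM.

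The remaining calls with R788 in TCM were each lost when 1 library was left out. In NB9464 TCM, Lamp1 was called at 0.16, lost without SJ4, SJ9 or SJ10 (adjusted p of up to 0.192), and Atp6v0d2 at -0.82, lost without SJ3, SJ4 or SJ9 (adjusted p of up to 0.273). In NBT3L TCM, Ctss was called at -0.14, Lamp2 at -0.15 and Atp6v1h at -0.18, and each was lost without any 1 of the 4 libraries of the comparison, at an adjusted p of up to 0.215, 0.172 and 0.324. Grn, Glb1, Ctse, Ctsf, Ctso, Tfe3, Atp6v0d1, Atp6v1a, Atp6v1c1 and Atp6ap1 were called in none of the 3 comparisons with R788.

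**Figure D5:**
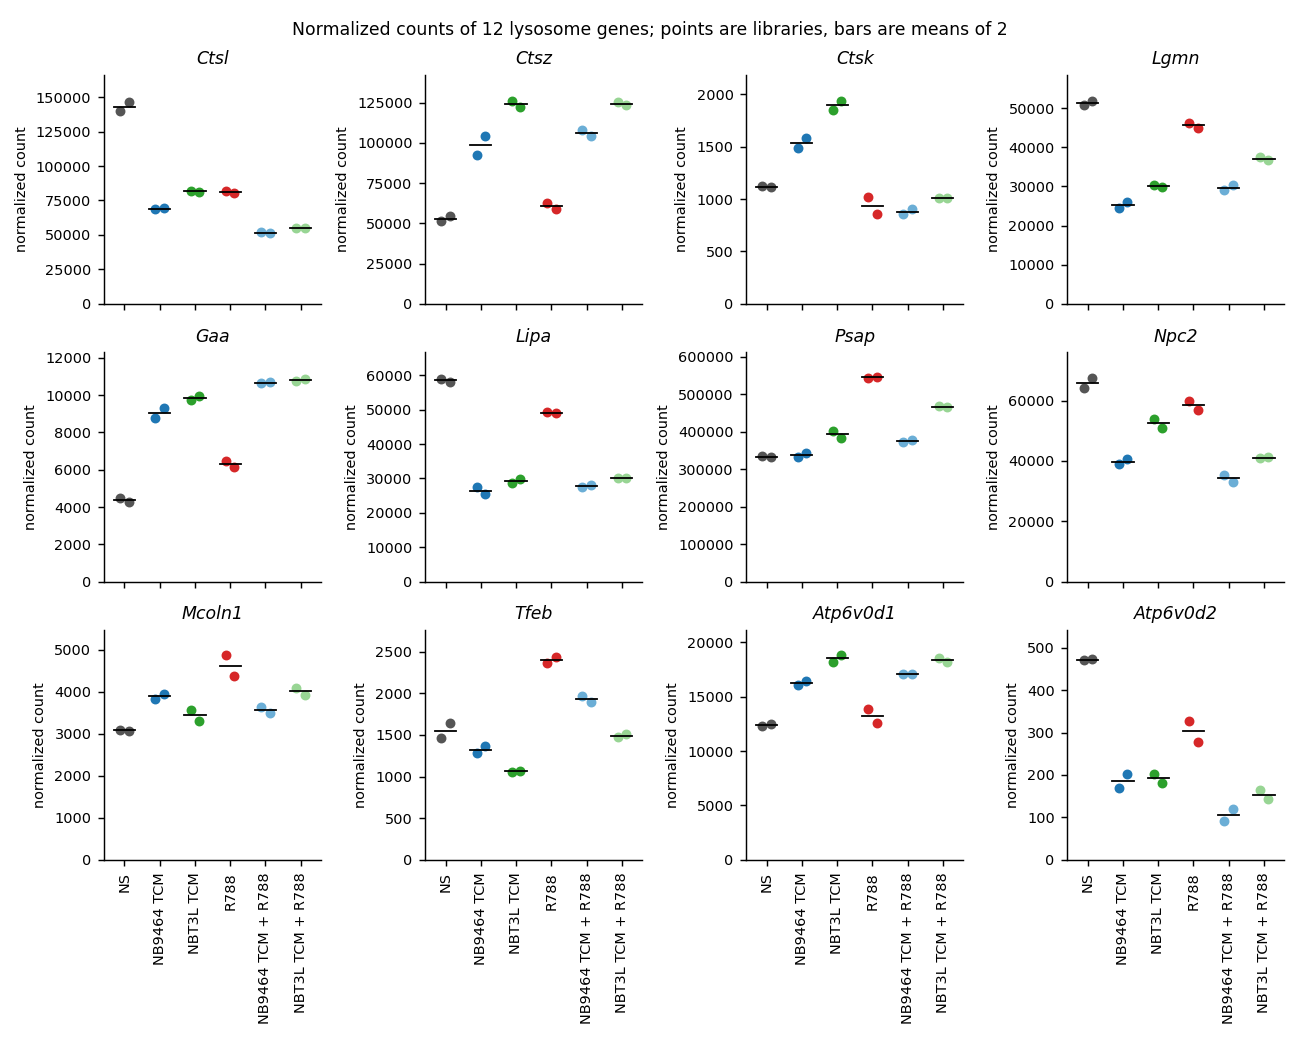
Normalized counts (axes from 0) of 12 of the genes in every library, with points for libraries and bars for the mean of 2. Ctsl is highest in NS, Ctsz and Gaa are high in all groups with TCM, Tfeb rises with R788 in each medium, and Ctsk is at most 1009 in the groups with TCM and R788 after 1484 to 1935 in TCM alone.

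The interaction contrasts asked whether a gene responded differently to R788 in different media. Of the 40 genes, 15 (37.5%) passed for NB9464 TCM against no TCM, 8 positive and 7 negative, beside 12.5% of all tested genes. For NBT3L TCM against no TCM 14 (35.0%) passed, 7 in each direction, beside 10.1%. Between the 2 TCM none of the 40 passed by DESeq2, beside 0.706% of all tested genes. At an unadjusted p under 0.05 this last contrast had 3 of the 40, and edgeR called 0 of the 40. The share of all tested genes at the unadjusted threshold is not given here, so those 3 are not read as a result. The first 2 contrasts share the R788 and NS libraries. The largest called were those of Mcoln1, at -0.71 ± 0.12 (SE, adjusted p = 3.77e-08 by DESeq2) for NB9464 TCM, and Ctsk, at -0.65 ± 0.17 (adjusted p = 0.00321) for NBT3L TCM. Psap, at -0.55 ± 0.055 and -0.46 ± 0.055, rose less with R788 in either TCM than without. Lgmn, at 0.41 ± 0.070 and 0.48 ± 0.070, was called lower with R788 without TCM and higher with it in TCM.

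Outside the 40 genes, 91 other genes of lysosome function were listed, and 85 of them were tested. In NB9464 TCM 29 rose and 21 fell (34.1% and 24.7%, beside 17.2% and 16.9% of all tested genes), in NBT3L TCM 33 rose and 21 fell (38.8% and 24.7%, beside 18.0% and 17.3%), and with R788 alone 32 rose and 14 fell (37.6% and 16.5%, beside 11.6% and 15.0%). With R788 in NB9464 TCM 21 rose and 9 fell (24.7% and 10.6%, beside 5.79% and 8.70%), and in NBT3L TCM 14 rose and 10 fell (16.5% and 11.8%, beside 5.33% and 7.24%). Their median log2 fold changes were 0.11, 0.07, 0.13, 0.05 and -0.02 in these 5 comparisons. With total-count scaling the counts in the first 3 became 20 higher and 32 lower, 23 higher and 36 lower, and 41 higher and 13 lower, so the balance of direction in TCM depended on the scaling.

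Of 12 other V-ATPase subunits tested, 6 rose in NB9464 TCM and 9 in NBT3L TCM, beside 17.2% and 18.0% of all tested genes. None fell, beside 16.9% and 17.3%. Total-count scaling gave 5 higher and 0 lower, and 5 higher and 1 lower. Atp6v1e1, part of the peripheral stalk, rose by 0.67 ± 0.072 and 0.87 ± 0.073 on the log2 scale (SE), with 7747 ± 327 normalized counts in NS and 12319 ± 534 and 14155 ± 38.1 (SD, n = 2). Atp6v0b, of the proteolipid ring, was called higher in both TCM and with R788 alone (0.43, 0.60 and 0.51). Tcirg1, the a3 subunit, fell with R788 in NB9464 TCM (-0.24) and in NBT3L TCM (-0.18), the latter lost without any 1 of the 4 libraries compared.

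Of 26 other hydrolases, 10 rose and 10 fell in each TCM, beside 17.2% and 16.9%, and 18.0% and 17.3%, of all tested genes. With R788 alone 10 rose and 6 fell, beside 11.6% and 15.0%. In TCM total-count scaling gave 6 higher and 13 lower, and 8 higher and 15 lower. Acp5, the tartrate-resistant acid phosphatase that is also an osteoclast marker, averaged 781 ± 46.6 normalized counts in NS (SD, n = 2) and was called higher at 4449.5 ± 68.1 in NB9464 TCM and 4329 ± 75.2 with NBT3L medium. With R788 alone it fell to 304 ± 94.5, a log2 fold change of -1.37, whereas R788 raised it in NB9464 TCM (0.77) and NBT3L TCM (0.40), the latter lost without SJ5, SJ6 or SJ11 (adjusted p of up to 0.129). Arsb, an arylsulfatase, fell in TCM, with log2 fold changes of -1.69 and -1.64. Sgsh, a heparan sulfatase, rose with R788 in each medium (1.01, 0.45 and 0.69), as did Naglu of the same degradation route, and the second of these calls was lost without SJ3 or SJ10 (adjusted p of up to 0.125).

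Of 18 other membrane proteins, 7 rose and 5 fell in NB9464 TCM, beside 17.2% and 16.9% of all tested genes. In NBT3L TCM 8 rose and 6 fell, beside 18.0% and 17.3%, and with R788 alone 10 rose and 1 fell, beside 11.6% and 15.0%. In TCM total-count scaling gave 4 higher and 7 lower, and 4 higher and 7 lower. Slc15a3, a peptide and histidine transporter, rose on the log2 scale by 1.48 and 1.86 in TCM and fell with R788 alone (-0.38). Gpnmb, a glycoprotein of phagocytic macrophages, fell in NB9464 TCM with a log2 fold change of -0.84, from 481022 ± 970 to 268592 ± 1986 normalized counts (SD, n = 2). Mcoln2, a channel related to Mcoln1, rose by 1.83 in NBT3L TCM and fell with R788 there (-0.42) and in NB9464 TCM (-0.62).

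Among 5 tested cathepsin inhibitors (of 10 listed), 1 rose in NB9464 TCM, close to the 17.2% of all tested genes. In NBT3L TCM 2 rose, beside 18.0%, and with R788 alone 3 fell, beside 15.0%. Stfa3, a stefin, was at 3.78 ± 2.69 normalized counts in NS and rose to 266 ± 36.2 and 617 ± 17.4 in TCM (SD, n = 2). It belongs to a cluster of near-identical genes, so how its reads were assigned is uncertain. Cst3, the secreted cystatin C, fell with R788 alone (-0.61), as did Cst7 (-2.18). A list of 9 genes covered mannose 6-phosphate and related sorting, the route by which new hydrolases reach the lysosome. Of these, 3 rose and 1 fell in NB9464 TCM, beside 17.2% and 16.9% of all tested genes. In NBT3L TCM 2 rose and 2 fell, beside 18.0% and 17.3%, and with R788 alone 4 rose and 1 fell, beside 11.6% and 15.0%. Counts of 1 or 2 of 9 are close to these shares. In TCM total-count scaling gave 2 higher and 2 lower, and 2 higher and 4 lower. Sort1, a sorting receptor, rose in 5 comparisons, by 1.21 and 1.23 in TCM and by 1.13, 0.64 and 0.35 with R788. M6pr, a receptor of that route, rose by 0.75 and 1.05 in TCM, and Igf2r, the other receptor, fell with R788 in NB9464 TCM (-0.49) and NBT3L TCM (-0.27), the latter lost without SJ6, SJ11 or SJ12 (adjusted p of up to 0.329).

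Of 15 regulators of lysosome number and nutrient sensing, 2 rose and 5 fell in NB9464 TCM, beside 17.2% and 16.9% of all tested genes. In NBT3L TCM 2 rose and 3 fell, beside 18.0% and 17.3%. With R788 alone 6 rose and 3 fell, beside 11.6% and 15.0%. Counts of 2 or 3 of 15 are close to these shares. In TCM total-count scaling gave 2 higher and 9 lower, and 2 higher and 9 lower. Flcn, which with its partners restrains TFEB and TFE3, rose with R788 in each medium (0.72, 0.26 and 0.35), as Tfeb did, although the second call was lost without SJ4 or SJ10 (adjusted p of up to 0.278). Rragd, a GTPase whose gene is a known target of these factors, fell in TCM (-2.16 and -1.49), the latter lost without SJ2 (adjusted p = 0.0530). Tfec, a related factor of macrophages, rose with R788 alone (0.41) and fell with it in NB9464 TCM (-0.42) and NBT3L TCM (-0.47). These 3 calls of Tfec were lost without SJ2 (adjusted p = 0.0744), without SJ10 (adjusted p = 0.0785) and without SJ5 (adjusted p = 0.0512).

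Counts of some of the 40 genes could include reads of neighbors, since whether counting used the strand was not stated. Exons of Ctsa, Ctsb, Ctsl, Ctsz, Hexa, Grn, Lamp1, Npc1 and Atp6v1h overlap exons of a gene on the opposite strand, among them Pltp for Ctsa and Nelfcd for Ctsz. Ctsd, Ctsl and Glb1 overlap a gene on the same strand. Their values are uncertain to that extent.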

How the data were processed

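Raw counts per gene were deposited by the authors in 1 table for the 12 libraries, as whole numbers with the length of each gene. Per the submitters' processing notes the tools included STAR 2.6.1d, Salmon 1.4.0, SAMtools 1.9, Picard 2.26 and MultiQC 1.11, with the genome build mm10. The methods of the study state that Salmon quantified the reads after mapping with STAR. The deposited counts are whole numbers, so whether they are direct Salmon output is uncertain. The use of strand and the treatment of multimapping reads were not given in the sources used here. Libraries were polyA-selected and paired-end per the labels. Between 65.2% and 67.9% of low counts (1 to 40) were even, so both mates of a pair may have been counted. Per library, 44977847 to 56449685 counts were available, in 2 libraries per group, and both limit the precision. The methods of the study name triplicates and single reads, whereas the labels give 2 libraries a group and paired ends.

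Groups followed the labels. The 40 genes and the other lists were chosen with earlier results of these data known. Counts were fitted in 1 DESeq2 model (1.42.0, R 4.3.3) of 6 group means over all 12 libraries, with median-of-ratios size factors, Wald tests, unshrunken log2 fold changes and Benjamini-Hochberg adjustment over the 16281 genes that reached 10 counts in 2 or more libraries. A gene was called at an adjusted p under 0.05. Interaction contrasts came from the same fit. TPM used the deposited gene lengths. The scripts were tested on simulated data. Values per library are given for the 3 genes of each role with the largest called change, for both forms of subunit d and for both transcription factors. Of each other list, up to 2 called genes with the largest rise and 2 with the largest fall per comparison could be named, and some genes of these lists are not reported here by name. There were 20 alternatives: edgeR 4.0.16 (quasi-likelihood, TMM), TMM scaling, total-count scaling, no filter, a filter on means under 50 counts, a covariate for odd or even library numbers, halved counts, only the libraries compared, and leaving out each of the 12 libraries.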

Additional observations from a re-analysis of the deposited data

Results flagged for a closer look

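For 16 of the 40 genes the effect of R788 in a tumor-conditioned medium differed from its effect without one, by the interaction contrast itself (DESeq2, adjusted p under 0.05). Values are differences between 2 log2 fold changes, and a positive value means a higher fold change in TCM. For NB9464 TCM the positive differences were 0.23 for Ctsc, 0.41 for Ctsh, 0.39 for Ctsl, 0.41 for Lgmn, 0.30 for Gusb, 0.32 for Lipa, 0.40 for Cd68 and 0.33 for Atp6v1b2. Negative differences were -0.37 for Ctsd, -0.54 for Ctsk, -0.29 for Gaa, -0.55 for Psap, -0.39 for Npc1, -0.71 for Mcoln1 and -0.40 for Atp6v0a1. In NBT3L TCM the positive ones were 0.35 for Ctsc, 0.24 for Ctsl, 0.48 for Lgmn, 0.24 for Gusb, 0.30 for Lipa, 0.28 for Cd68 and 0.28 for Atp6v1b2, and the negative ones -0.34 for Ctsd, -0.65 for Ctsk, -0.39 for Gaa, -0.26 for Neu1, -0.46 for Psap, -0.29 for Npc1 and -0.36 for Mcoln1. The same R788 and NS libraries enter both contrasts. Calls were lost on leaving out 1 library for Ctsc (without SJ1, SJ4 or SJ10, adjusted p of up to 0.134), Ctsh (without SJ3 or SJ9, adjusted p of up to 0.0792), Ctsk (without SJ1, SJ2, SJ4, SJ7 or SJ9, adjusted p of up to 0.106) and Gaa (without SJ2, SJ4 or SJ9, adjusted p of up to 0.112) in NB9464 TCM, and for Neu1 (in 9 of the 12 fits that left out 1 library, at an adjusted p of up to 0.173), Cd68 (without SJ2, SJ6, SJ11 or SJ12, adjusted p of up to 0.0924), Npc1 (without SJ1, SJ6 or SJ12, adjusted p of up to 0.144) and Mcoln1 (without SJ1, SJ2, SJ5, SJ7 or SJ12, adjusted p of up to 0.155) in NBT3L TCM.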

How the results depend on the processing

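Total-count scaling, chosen after seeing the data, left 10 of the 40 genes higher in NBT3L TCM (16 in the reported fit), 7 lower with R788 alone (12), 3 higher and 10 lower in NB9464 TCM against NBT3L TCM (1 and 22), and 1 interaction between the 2 TCM (0). Under it the sign turned for Psap (-0.11) and Atp6v1b2 (-0.13) in NB9464 TCM and for Atp6ap1 (-0.094), Gusb (-0.028), Ctsc (-0.028), Lamp1 (-0.21), Hexa (-0.083) and Atp6v1a (-0.15) in NBT3L TCM, all log2 fold changes against NS, with the median of all genes at -0.10 and -0.23. Without R788 replicate SJ7 the log2 fold change of Ctsh with R788 alone was -0.19, and without SJ8 it was 0.18. With edgeR, 5 genes were lower with R788 in NBT3L TCM (9 reported), and 0 were higher and 14 lower in NB9464 TCM against NBT3L TCM. Fitting only the libraries compared left 7 lower with R788 alone, 0 higher in NB9464 TCM against NBT3L TCM and 3 interactions between the TCM. Halved counts gave 0 higher in NB9464 TCM against NBT3L TCM, and TMM scaling and a covariate for odd or even library numbers gave 1 interaction between the TCM each. Over all tested genes, edgeR called 598 lower in NB9464 TCM against NBT3L TCM (931 by DESeq2), and interactions between the TCM numbered 21 by edgeR and 272 with only the libraries compared (115 reported).

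On leaving out each library in turn, the higher and lower counts ranged over 9 to 12 and 17 to 19 in NB9464 TCM, 13 to 17 and 13 to 16 in NBT3L TCM, 9 to 16 and 8 to 13 with R788 alone, 6 to 11 and 6 to 8 with R788 in NB9464 TCM, 5 to 8 and 4 to 10 with R788 in NBT3L TCM, and 0 to 1 and 14 to 27 in NB9464 TCM against NBT3L TCM. The interactions ranged over 12 to 18, 10 to 18 and 0 to 2. A library left alone in its group was assumed to vary like the others. Where these values moved, the cause was not tested. No paired analysis was possible because the library numbers are unique to each library. With 2 libraries a group, the errors of low genes were wide, as for Ctsf with an SE of 0.38 in NB9464 TCM against NS.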
